A study of Mus musculus with 8 samples.

Results

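The comparison set 3 arrays of untreated macrophages that had received an siRNA against MLL (siMLL) against the single array of untreated macrophages that had received a scrambled siRNA (siCtrl). These are 4 of the 8 arrays of the series, chosen by their titles alone. All were thioglycollate-elicited peritoneal macrophages of C57BL/6 mice, that is, cells drawn from the abdominal cavity after an irritant had been injected there, and neither group had been given the Toll-like receptor 4 (TLR4) agonist Kdo2 lipid A (KLA). The single untreated array of cells that had received an siRNA against GABP (siGABP) is used below only as another lone array beside the same siMLL arrays. The study asked how histone marks and transcription factors set the state of TLR4-responsive genes before and after activation. The labels give neither the age or sex of the mice nor the way the siRNAs were delivered, and the dose and duration of the knockdown are not given in the sources used here.

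MLL is a histone methyltransferase that adds methyl groups to lysine 4 of histone H3, a mark found at the start sites of active genes. It works in a complex with shared core subunits, and its best known targets are homeobox genes of development and leukaemia. Macrophages respond to TLR4 through NF-κB and interferon programmes and hold active pathways of lipid synthesis, iron export and lysosomal transport, so the genes described below are grouped by these roles.

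Knockdown of the target could not be read, because no probe carried the symbol Kmt2a, the gene of MLL, and which of the related MLL genes the siRNA targets is left unsaid in the labels. The labels number the siMLL arrays 1 to 3 without saying whether they came from separate animals, cultures or transfections, so the p-values below measure only the spread between these arrays, which may be technical. The siCtrl group had 1 array and no spread of its own. It was assumed to vary like the siMLL triplicate, and whatever sets that array apart for a reason other than the siRNA cannot be told apart from siMLL. Across probes, pairs of siMLL arrays correlated at r = 0.9962 to 0.9975 (root mean square log2 difference 0.116 to 0.143), siMLL and siCtrl arrays at 0.9928 to 0.9938 (0.183 to 0.198), siMLL and siGABP arrays at 0.9943 to 0.9944 (0.175 to 0.177), and siCtrl and siGABP at 0.9928 (0.199). These correlations are descriptions over probes of the same arrays, which share one distribution of values. Of 19 macrophage markers, 15 were on the array and 14 lay above the median intensity. The defining markers of the labelled cell type were thus present. None of the 14 was called by limma, against 1.85% of all genes (3 at an unadjusted p under 0.05). The summed intensity of the 15 was 126655 to 130697 in the siMLL arrays and 131152 in the siCtrl array. Bright probes carried much of that sum, among them Lgals3, at 36825 in every siMLL array and in siCtrl. As the arrays share one distribution of values, the likeness of the sums says little about cell content.

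Levels are given as deposited intensities, which have no absolute unit and keep some background. Differences are on the log2 scale after background correction with 50 added to each value, which understates the fold of dim genes. A gene was called when its Benjamini-Hochberg adjusted p, from limma over 8801 genes, was under 0.05. In all, 163 genes (1.85%) were called, of which 104 (1.18%) were higher and 59 (0.67%) were lower with siMLL. Most differences were small. Of the called genes, 5 rose and 8 fell at least 2-fold, the other 150 changed by less, and the sizes ran from 0.41 to 1.67 on the log2 scale with a median of 0.57. The median over all genes tested was 0.0027. At an unadjusted p under 0.05 there were 1494 genes. The siCtrl value lay outside the range of the 3 siMLL values for all 163 called genes and for 62.3% of all genes tested, so that property alone sets few genes apart. The count depended on single arrays: it was 95 without siMLL replicate 1, 226 without replicate 2 and 64 without replicate 3, of which 91, 155 and 62 were among the 163. The siCtrl array could not be left out in the same way. In 125 of the 163 called genes the untreated siGABP array read nearer to the siMLL mean than to siCtrl on the log2 scale. In the other 38 it read nearer to siCtrl. It lay within the siMLL range in 32 of the 163 and between siMLL and siCtrl in 91. The genes had been called for the distance of siCtrl from siMLL, so these counts are descriptions.

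**Figure D1:**
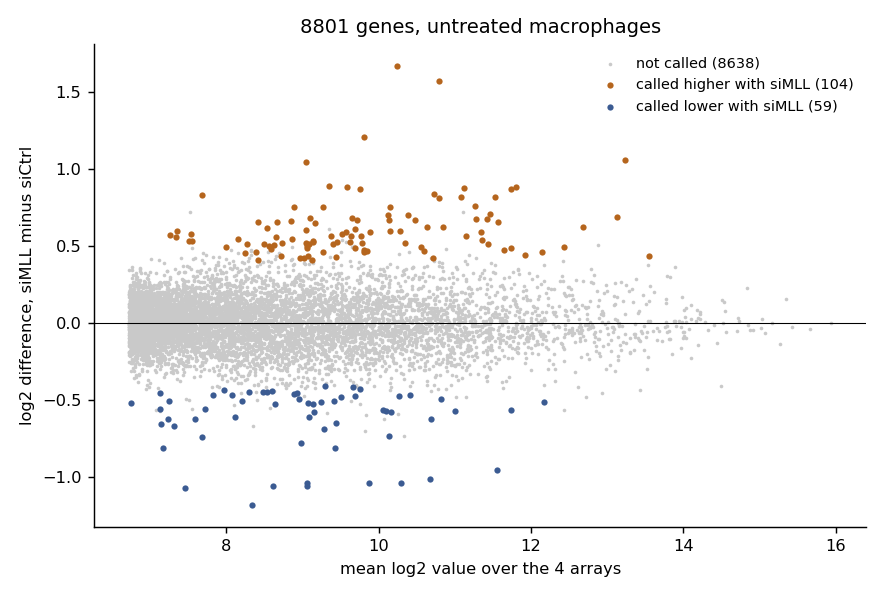
Log2 difference, siMLL minus siCtrl (vertical axis), against the mean log2 value over the 4 arrays (horizontal axis) for 8801 genes, with 104 genes called higher in brown and 59 called lower in blue. Most called genes differed by less than 2-fold, and they lie at all but the highest levels.

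The largest rise was in Slc2a6, which encodes a transporter of the glucose transporter family found in lysosomal membranes. Its intensity was 1699, 1570.0 and 1679.5 in the siMLL arrays and 541 in the siCtrl array, 3.18-fold higher (log2 1.67 ± 0.08 SE, adjusted p = 0.000751). Next came Slc46a3, another transporter of the lysosomal membrane, at 2402, 2527 and 2186 against 818, 2.97-fold higher (log2 1.57 ± 0.10 SE, adjusted p = 0.00193). In both genes the 3 siMLL arrays lay close together and far above the siCtrl array. Slc6a12, a plasma membrane transporter of betaine and GABA, read 669.5, 627 and 705 against 340.1 and was 2.06-fold higher (log2 1.04 ± 0.09 SE, adjusted p = 0.0057). The list of lysosomal hydrolases and membrane proteins, which holds Slc46a3, had no other call among its 33 measured members, and its median was -0.02. That is 3.03% called, against 1.85% of all genes.

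Secreted and signalling proteins of inflammation were also among the largest rises. The CC chemokine gene Ccl6 read 1083, 1284 and 1063 with siMLL and 512 with siCtrl, 2.31-fold higher (log2 1.21 ± 0.12 SE, adjusted p = 0.00663). Ccl9, a related chemokine, read 1004, 1107 and 1004 against 582 and was 1.83-fold higher (log2 0.87 ± 0.09 SE, adjusted p = 0.00733). The cytokine gene Il1a read 771, 905 and 723 against 445, 1.85-fold higher (log2 0.89 ± 0.13 SE, adjusted p = 0.0192), and its siMLL arrays spread more widely than those of most genes named here. Alox5ap encodes the protein that hands arachidonic acid to 5-lipoxygenase for leukotriene synthesis. It read 4273, 4327 and 4042 against 2293 and was 1.85-fold higher (log2 0.89 ± 0.08 SE, adjusted p = 0.0057). It was the only call among 11 measured genes of leukotriene and prostaglandin synthesis (9.09%, against 1.85% of all genes). S100a4, a calcium-binding protein tied to cell motility, was 1.85-fold higher (978, 830.2 and 997 against 519.8), Rtl8a, a gene derived from a retrotransposon, 1.83-fold (4005, 4108 and 3879.5 against 2197) and Spg21, a protein of the hydrolase fold, 1.79-fold (1941, 2169 and 1863 against 1127), with adjusted p from 0.0057 for Rtl8a to 0.0135 for S100a4. The siMLL and siCtrl values overlapped in none of these genes, which held for all 163 called genes and for 62.3% of all genes tested.

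**Figure D2:**
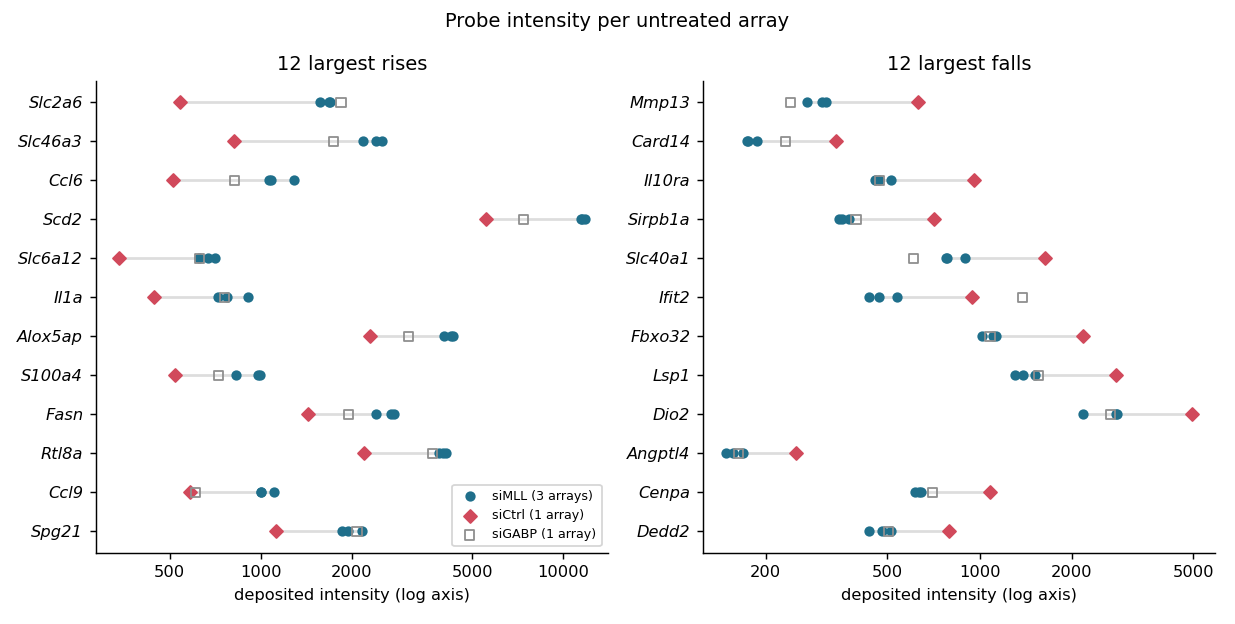
Deposited intensity on a log axis for the 12 called genes with the largest rises (left) and the 12 with the largest falls (right), with the 3 siMLL arrays as circles, the siCtrl array as a diamond and the siGABP array as an open square. The siMLL circles lie close together and away from the siCtrl diamond in every row, while the place of the siGABP square varies from gene to gene. Genes were shown only if siCtrl lay outside the siMLL range.

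Genes of lipid synthesis formed the group with the most rises. Of 21 measured genes of cholesterol synthesis, 5 rose and none fell (23.8% called, against 1.85% of all genes), 19 of the 21 were higher with siMLL, and the median difference was 0.28. Of 19 measured genes of fatty acid synthesis and desaturation, 5 rose and none fell (26.3%), 13 were higher, and the median was 0.16. This list also held genes of lipid uptake, binding and storage, among them the called lipase gene Lpl. These shares are descriptions. The lists were chosen with earlier results of these data known, and no test of the lists was made.

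Among fatty acid genes, Scd2, a desaturase that places the first double bond in saturated fatty acids, rose most. Its intensity was 11789.8, 11514 and 11427 in the siMLL arrays and 5569.7 in the siCtrl array, 2.08-fold higher (log2 1.06 ± 0.08 SE, adjusted p = 0.00367). Its close relative Scd1 read 2455, 2564 and 2579 against 1451 and was 1.76-fold higher (log2 0.82 ± 0.08 SE, adjusted p = 0.00663). Fasn, the fatty acid synthase, read 2702, 2406 and 2763 against 1439, 1.84-fold higher (log2 0.88 ± 0.10 SE, adjusted p = 0.00896). Whether probes of relatives as close as Scd1 and Scd2 bind each other's transcripts was not tested. Fads1, a desaturase of polyunsaturated fatty acids, was 1.39-fold higher (3588, 3399 and 3522 against 2527). Lpl, the lipoprotein lipase, was 1.35-fold higher (12888, 12732 and 13162 against 9577). Angptl4, a secreted inhibitor of that lipase, fell to 149, 157 and 168 from 252 and was 1.76-fold lower (log2 -0.81 ± 0.10 SE, adjusted p = 0.0119), and its dimmer probe gave -0.22. Pnpla2, the first lipase of triglyceride breakdown, read 2889, 3311 and 3189 against 4595 and was 1.48-fold lower (log2 -0.56 ± 0.10 SE, adjusted p = 0.0366). It was named after its values were seen. Plin2, a coat protein of lipid droplets, was lower in all 3 siMLL arrays (5968, 6807 and 5979 against 8687) but was not called (log2 -0.48 ± 0.10 SE, adjusted p = 0.0613). Without siMLL replicate 1 or replicate 3, the fatty acid list kept 3 calls each, and Fads1 and Lpl then differed by 0.42 to 0.47 with adjusted p from 0.0826 to 0.128. Pnpla2 also lost its call without either of these arrays, at -0.50 (adjusted p = 0.0632) and -0.58 (adjusted p = 0.09).

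In cholesterol synthesis the called enzymes spanned the pathway. Hmgcs1, which makes HMG-CoA at its entry, read 5845, 6049 and 6334 with siMLL and 4315 with siCtrl and was 1.41-fold higher (log2 0.50 ± 0.08 SE, adjusted p = 0.0333). Fdps, which makes farnesyl diphosphate, read 3098, 3281 and 2987 against 1961, 1.6-fold higher (log2 0.68 ± 0.09 SE, adjusted p = 0.0122). The highest fold of the list was in Sqle, the squalene epoxidase, with 1510.2, 1584 and 1551 against 963, 1.63-fold higher (log2 0.70 ± 0.08 SE, adjusted p = 0.00896). Msmo1 and Nsdhl, which remove methyl groups from the sterol ring, read 4135, 4245 and 4273 against 3110.3 (1.36-fold higher) and 1409, 1498 and 1474 against 1028 (1.43-fold higher). The other 2 kept probes of Nsdhl gave 0.25 and 0.22, in the same direction as the 0.52 of its brightest probe. Among members that missed the threshold, Cyp51, the lanosterol demethylase, differed by 0.54 (adjusted p = 0.0522), Dhcr7, the last enzyme to cholesterol, by 0.49 and Lss, the lanosterol synthase, by 0.41. Srebf2, the transcription factor of this pathway, read 334, 336 and 346 against 336, a difference of 0.01 ± 0.08 SE. The list kept 3 calls without siMLL replicate 1 and 2 without replicate 3. Of the genes named here, Hmgcs1 and Msmo1 lost their calls in both cases and Nsdhl without replicate 3, with differences of 0.43 to 0.52 and adjusted p from 0.0557 to 0.118.

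The promoter of Hmgcs1 is shown because it holds the letters of a sterol regulatory element, the site known to bind the factors that switch on this pathway. The sequence comes from RefSeq (GRCm38.p6) and runs from 250 bases before to 50 bases after the start of the gene. The capitals mark the match to TCACNCCAC, searched on both strands.
Hmgcs1 promoter, chr13:119690101-119690400, plus strand: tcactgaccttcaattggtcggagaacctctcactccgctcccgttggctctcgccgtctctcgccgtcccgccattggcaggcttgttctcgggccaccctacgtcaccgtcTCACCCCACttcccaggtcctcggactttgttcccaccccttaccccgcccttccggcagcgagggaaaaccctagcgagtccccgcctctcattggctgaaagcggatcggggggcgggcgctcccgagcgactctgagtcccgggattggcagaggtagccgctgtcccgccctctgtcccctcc
Such a match stood at any listed start of 1.47% of the 7220 tested genes with a promoter. It stood in 3 of 79 genes that rose (Hmgcs1, the cochaperone gene Fkbp4 and the kinase gene Mapk6) and in 0 of 40 that fell. Among 17 genes of the cholesterol list with a promoter, Hmgcs1 alone had it. Promoters of 1581 tested genes were not analysed here.

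**Figure D3:**
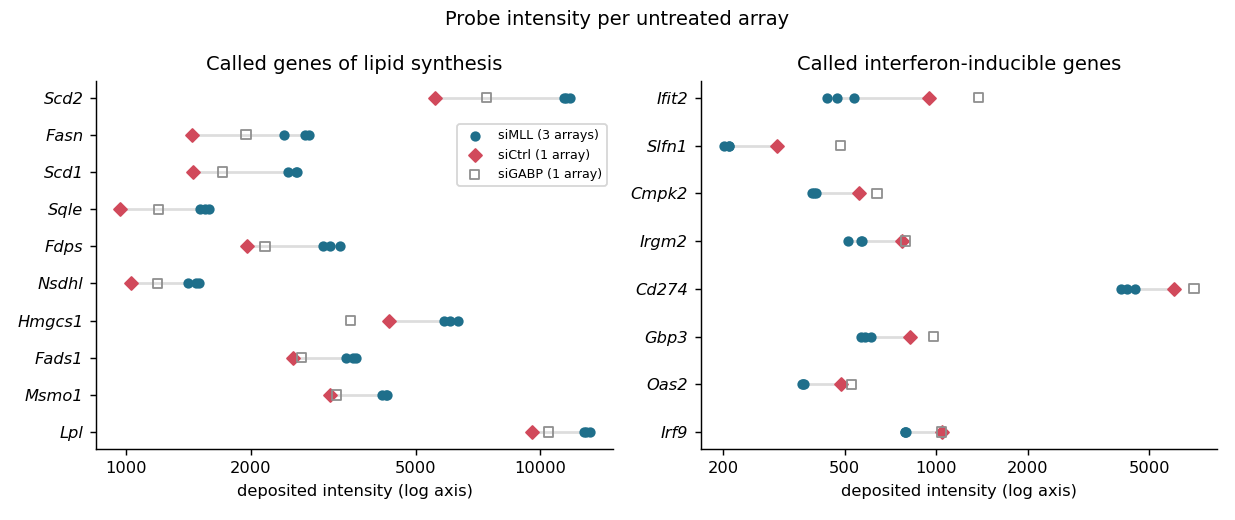
Deposited intensity (log axis) for the 10 called genes of the cholesterol and fatty acid lists (left) and 8 interferon-inducible genes called lower (right). The 3 siMLL arrays are circles, the siCtrl array is a diamond and the siGABP array is an open square. All 3 siMLL circles lie above siCtrl on the left and below it on the right, and on the right the siGABP square lies near siCtrl or above it. Only genes that fell were drawn on the right, so their direction was fixed by that choice. Ifi27l2a, an interferon-inducible gene called higher, is not shown.

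Interferon-stimulated genes were lower with siMLL. Of 38 measured members, 5 fell and none rose (13.2% called, against 0.67% of all genes in that direction), 33 of the 38 were lower and the median was -0.17. Ifit2, an antiviral protein that binds viral RNA, changed most: it read 437, 536 and 470.4 in the siMLL arrays and 947 in the siCtrl array and was 2.05-fold lower (log2 -1.03 ± 0.12 SE, adjusted p = 0.00985). Cmpk2, a mitochondrial nucleotide kinase, read 398, 390.1 and 403 against 557, 1.44-fold lower (log2 -0.52 ± 0.08 SE, adjusted p = 0.0211). Gbp3, a GTPase of defence against intracellular pathogens, read 564, 611 and 585 against 822, 1.42-fold lower (log2 -0.51 ± 0.08 SE, adjusted p = 0.031). Oas2, which makes the oligoadenylates that activate RNase L, read 363, 368 and 365 against 486 and was 1.36-fold lower. Irf9, the DNA-binding subunit of the factor that transmits type I interferon signals, read 796, 789 and 789 against 1043, 1.33-fold lower (log2 -0.41 ± 0.08 SE, adjusted p = 0.0436). Its dimmer probe gave -0.19, and with the mean of its probes Irf9 was not called (adjusted p = 0.118). Ifit3, a partner of the same family, was lower in all 3 siMLL arrays (301, 386 and 297 against 496) but missed the threshold (log2 -0.66 ± 0.16 SE, adjusted p = 0.0882). Usp18, which removes the ubiquitin-like modifier Isg15, differed by -0.34 and was not called.

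Outside the list, other genes known to be induced by interferon were called in both directions, and they were named after their values were seen, except Slfn1, which the rule for the study's late genes named. Slfn1, a Schlafen family gene, read 201, 209 and 208 against 299 and was 1.54-fold lower (log2 -0.62 ± 0.08 SE, adjusted p = 0.0122). Irgm2, an immunity-related GTPase, was 1.44-fold lower (515, 569.9 and 564 against 774). Cd274, which encodes the checkpoint ligand PD-L1, was 1.43-fold lower (4049, 4510.2 and 4230.3 against 6059.5). Ifi27l2a, in contrast, rose: it read 3529, 3304 and 3514 with siMLL and 1969 with siCtrl, 1.76-fold higher (log2 0.82 ± 0.08 SE, adjusted p = 0.00663). Irf7, the factor that amplifies interferon production, was the highest member of the list at 0.22 (611, 600.1 and 629 against 533) and was not called. The count of 5 falls in the list became 1 without siMLL replicate 1, 8 without replicate 2 and 1 without replicate 3. It was also 1 with an offset of 16 and 2 without the filter on dim probes, and in each of these settings the cholesterol list had 2 rises and the fatty acid list 3. Without replicate 1 or replicate 3 only Ifit2 kept its call, while Cmpk2, Gbp3, Oas2 and Irf9 differed by -0.54 to -0.41 with adjusted p from 0.0527 to 0.136. Irgm2 and Cd274 lost their calls without the same arrays, with adjusted p from 0.0748 to 0.11, whereas Slfn1 and Ifi27l2a kept them.

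The promoters of Gbp3 and Irgm2 are shown because they carry GAAA, any 2 bases and GAAA again, the core of the interferon-stimulated response element. Capitals mark the matches, which in Gbp3 are 2 overlapping ones read on the opposite strand. Of the 2 starts listed for Gbp3, the first is shown. The promoter of Mmp13, the gene with the largest fall, has a match to that core on the opposite strand. It also has the letters TATAAA on its own strand, and both are in capitals.
Gbp3 promoter, chr3:142559794-142560093, plus strand: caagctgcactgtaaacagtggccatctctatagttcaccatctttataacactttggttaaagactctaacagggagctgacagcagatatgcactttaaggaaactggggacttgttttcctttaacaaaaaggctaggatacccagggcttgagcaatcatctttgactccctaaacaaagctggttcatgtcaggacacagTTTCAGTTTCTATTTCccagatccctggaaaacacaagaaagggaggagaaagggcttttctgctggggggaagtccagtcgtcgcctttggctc
Irgm2 promoter, chr11:58214727-58215026, plus strand: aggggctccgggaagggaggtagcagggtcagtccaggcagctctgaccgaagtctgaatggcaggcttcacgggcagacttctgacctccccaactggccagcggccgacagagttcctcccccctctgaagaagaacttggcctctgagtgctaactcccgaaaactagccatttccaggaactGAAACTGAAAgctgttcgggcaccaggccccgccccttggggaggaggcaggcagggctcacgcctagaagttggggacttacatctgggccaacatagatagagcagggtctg
Mmp13 promoter, chr9:7272264-7272563, plus strand: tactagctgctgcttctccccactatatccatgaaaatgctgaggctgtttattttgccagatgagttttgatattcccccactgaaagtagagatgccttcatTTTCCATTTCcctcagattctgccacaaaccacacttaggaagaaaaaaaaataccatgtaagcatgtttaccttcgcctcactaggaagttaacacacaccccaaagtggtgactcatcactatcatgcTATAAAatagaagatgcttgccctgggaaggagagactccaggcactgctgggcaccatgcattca
The response element core, searched on both strands, stood at any listed start of 3.82% of the 7220 genes with a promoter. It stood in 0 of 79 genes that rose and in 5 of 40 that fell (12.5%), which were Gbp3, Irgm2, Mmp13, Sirpb1a and Zbtb18. Of 30 promoters of the interferon list, 14 (46.7%) had it. The letters TATAAA, searched on the strand of the gene, stood in 6.3% of all promoters, 6.33% of those of genes that rose and 17.5% of those of genes that fell. They were counted anywhere in the window, not only where a TATA box would lie. The binding letters of PU.1, GAGG followed directly by AAGT on either strand, stood in 3.77% of all promoters, in 6 of 79 of genes that rose and in 3 of 40 of genes that fell. The median ratio of observed to expected CpG was 0.751 over all promoters, 0.665 for genes that rose and 0.436 for genes that fell, and the median GC content was 60.3%, 60.3% and 58.5%. Shares of promoters with a motif are shares of genes with a match at any listed start, while CpG and GC were taken at the first start. These are descriptions of sequence windows, with no test.

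The largest fall overall was that of Mmp13, a collagenase that macrophages secrete. It read 274, 305 and 314 in the siMLL arrays and 629.8 in the siCtrl array, 2.26-fold lower (log2 -1.18 ± 0.10 SE, adjusted p = 0.0057), and its dimmer probe gave -0.47. Adam9, a membrane-bound metalloprotease, was 1.48-fold lower (992, 976 and 1043 against 1466), though not without siMLL replicate 1 (adjusted p = 0.051). These were the 2 calls among 19 measured extracellular proteases and inhibitors (10.5%, against 1.85% of all genes). Slc40a1 encodes ferroportin, the iron exporter through which macrophages return iron to plasma. It read 777, 780.4 and 898 against 1638, 2.05-fold lower (log2 -1.03 ± 0.11 SE, adjusted p = 0.00687). It was the only call among 15 measured genes of iron and haem handling (6.67%, against 1.85% of all genes).

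Some single receptors and adaptors fell, while most members of their lists were not called. Il10ra, the ligand-binding chain of the receptor for the anti-inflammatory cytokine interleukin 10, read 470.2, 515 and 454 with siMLL and 959 with siCtrl, 2.08-fold lower (log2 -1.05 ± 0.10 SE, adjusted p = 0.0057). It was the only call among 22 measured cytokine and chemokine receptors (4.55%, against 1.85% of all genes). Sirpb1a, a signal regulatory receptor of myeloid cells, read 354, 347 and 374 against 708 and was 2.08-fold lower (log2 -1.05 ± 0.08 SE, adjusted p = 0.00525), while its dimmer probe gave -0.35. Axl, a receptor for dying cells, read 1552, 1613 and 1395 against 2316 and was 1.54-fold lower (log2 -0.62 ± 0.10 SE, adjusted p = 0.0295). It lost that call without siMLL replicate 1 (-0.64, adjusted p = 0.0521) and without replicate 3 (-0.56, adjusted p = 0.0634). Card14, a scaffold that links receptors to NF-κB, was 2.1-fold lower (173, 175 and 188 against 338). Irak2, a kinase-like adaptor of TLR signalling, read 1013, 1061 and 1012 against 1683, 1.66-fold lower (log2 -0.73 ± 0.08 SE, adjusted p = 0.00896). It was the only call among 25 measured TLR4 signalling genes (4%, against 1.85% of all genes). Each of these siCtrl values lay above all 3 siMLL values. In every called gene, and in 62.3% of all genes tested, siCtrl lay outside the siMLL range.

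The remaining large falls were in genes of varied roles. Fbxo32, which encodes the substrate-binding subunit of a ubiquitin ligase and is known from muscle wasting, read 1102, 1128 and 1019.9 against 2181 and was 2.05-fold lower (log2 -1.03 ± 0.09 SE, adjusted p = 0.0057). Lsp1, an actin-binding protein of leukocytes, read 1305, 1516 and 1386 against 2787, 2.02-fold lower (log2 -1.01 ± 0.10 SE, adjusted p = 0.00663). For Dio2, the enzyme that converts thyroxine to its active form, replicate 2 was the lowest of 2808, 2181 and 2793, against 4944, and the difference was -0.95 ± 0.15 SE (adjusted p = 0.0243), with the largest SE among called genes. Cenpa, the histone H3 variant of centromeres, was 1.75-fold lower (615, 634 and 645 against 1079). It was the only call among 27 measured cell cycle genes (3.7%, against 1.85% of all genes). Dedd2, a death effector domain protein, was 1.72-fold lower (436, 481 and 515 against 793). The 12 largest rises and the 12 largest falls kept their calls whichever siMLL array was left out. With an offset of 16, Il1a (adjusted p = 0.0563), Dio2 (adjusted p = 0.0787) and Dedd2 (adjusted p = 0.0558) lost theirs.

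Cytokine and chemokine genes did not move as a group. Of 22 measured members, 4 rose (Ccl6, Il1a, Ccl9 and Cxcl2) and 1 fell (Ccl2), a share called of 22.7% beside 1.85%, while 13 of the 22 were lower and the median was -0.06. Cxcl2, a neutrophil chemokine, read 215, 214 and 205 against 154 and was 1.48-fold higher (log2 0.56 ± 0.08 SE, adjusted p = 0.0189). Ccl2, a monocyte chemokine, read 272, 288 and 288 against 377 and was 1.38-fold lower (log2 -0.46 ± 0.08 SE, adjusted p = 0.0387). Ccl8 and Ccl4 were lower by 0.56 and 0.35 on the log2 scale and were not called. Cxcl2 lost its call without siMLL replicate 3 (adjusted p = 0.051), and Ccl2 without replicate 1 (-0.43, adjusted p = 0.0918) or replicate 3 (-0.48, adjusted p = 0.102).

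Among the genes that the study follows after TLR4 activation, calls in untreated cells ran both ways. Of 8 standard TLR4 targets above the filter, Cxcl2 was the only call (12.5%, against 1.85% of all genes), and the others differed by -0.19 to 0.27. Tnf, the gene of tumour necrosis factor, read 194, 182 and 189.7 with siMLL and 162 with siCtrl (log2 0.27 ± 0.08 SE, adjusted p = 0.162). Of 27 measured NF-κB and AP-1 regulators and targets limma called none (7 at an unadjusted p under 0.05), with differences from -0.37 to 0.24, and 1 was called lower under 1 of the 11 alternatives. Of the study's immediate/early genes, 79 were measured, 4 rose (Slc2a6, Il1a, Ccl9 and Cxcl2), 2 fell (Mmp13 and Ccl2) and the median was -0.03. That is 7.59% called beside 1.85% of all genes, and 29 (36.7%) had an unadjusted p under 0.05 beside 17% of all genes. They include both the largest rise and the largest fall. Of its late genes, 71 were measured, 2 rose (Slamf9 and Ass1), 2 fell (Slfn1 and Axl) and the median was -0.04, which is 5.63% called, with 24 (33.8%) at an unadjusted p under 0.05. The study had chosen these lists on other arrays, for their response to KLA. Without siMLL replicate 1 the falls in the immediate/early and late lists numbered 1 each, without replicate 2 the former numbered 4, and without replicate 3 they numbered 1 each while no late gene rose. Ass1, which makes argininosuccinate for arginine synthesis, read 453, 508 and 472 against 334 and was 1.48-fold higher. Slamf9, a receptor of the SLAM family, was 1.5-fold higher (231, 241 and 245 against 171).

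Genes of amino acid supply and stress rose in small number. Of 24 measured genes of the unfolded protein and integrated stress response, 3 rose and none fell. That is 12.5% called, against 1.85% of all genes, and the median was 0.12. Slc7a5, the transporter of large neutral amino acids, read 659, 654 and 647 against 419, 1.61-fold higher (log2 0.69 ± 0.08 SE, adjusted p = 0.00896). Psat1, an enzyme of serine synthesis, was 1.44-fold higher (628, 690.2 and 633 against 461), and Chac1, which breaks down glutathione, 1.36-fold (479, 491 and 498 against 369). Only Slc7a5 kept its call without siMLL replicate 1 or replicate 3, where Psat1 had adjusted p of 0.0579 and 0.0854 and Chac1 of 0.0819 and 0.124. In the respiratory chain, 2 of 69 measured genes rose: Cox6a2, a subunit of cytochrome c oxidase known mainly from muscle, read 694, 759 and 759.9 against 450.4, 1.69-fold higher (log2 0.75 ± 0.09 SE, adjusted p = 0.00986), and Uqcrc2, a core protein of complex III, read 2105, 2091 and 2052 against 1364, 1.54-fold higher (log2 0.62 ± 0.08 SE, adjusted p = 0.0113). At 2.9% called, that list lay near the share of all genes.

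**Figure D4:**
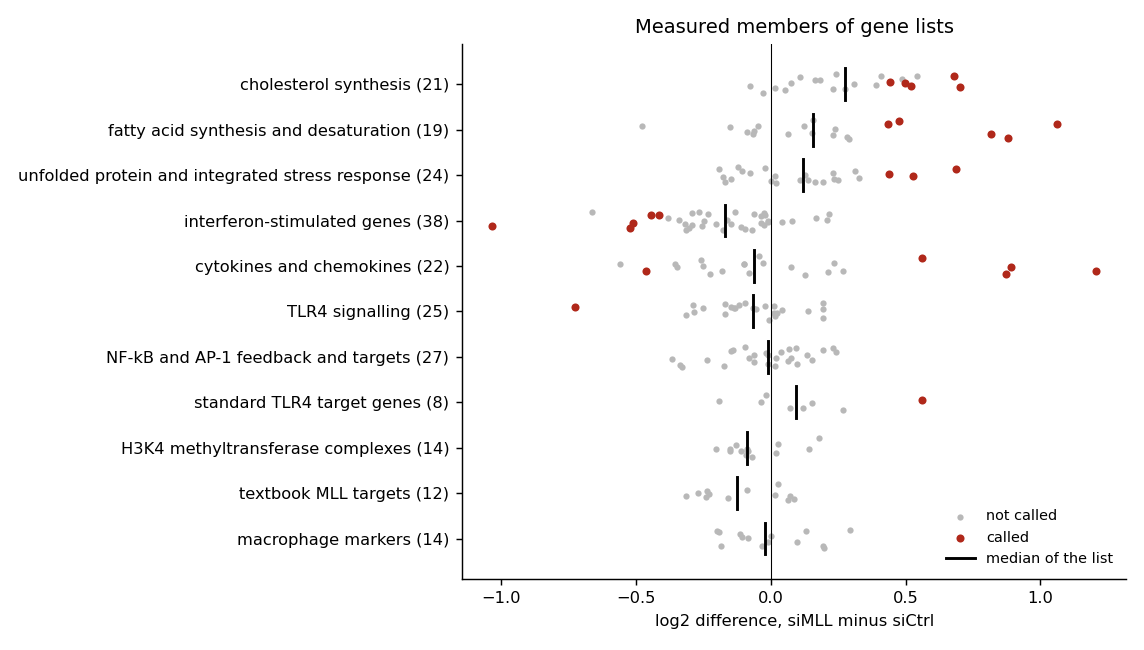
Log2 difference, siMLL minus siCtrl (horizontal axis), of the measured members of 11 gene lists, with called genes in red, other members in grey, the list's median as a black bar and the number of measured members in brackets. Called members lie to the right in both lipid lists and to the left among interferon-stimulated genes, and none is found among H3K4 methyltransferase complexes, textbook MLL targets or NF-κB and AP-1 genes. Over all genes 1.85% were called, so lists of this size can hold none.

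No subunit of the methyltransferase complexes themselves was called by limma, and none had an unadjusted p under 0.05. Over all genes, 1.85% were called and 17% had an unadjusted p under 0.05. Of 14 measured members, 10 were lower and 4 higher, the median was -0.09 and the range -0.21 (Ash2l) to 0.18 (Dpy30), both of which encode core subunits. Ash2l read 445, 393 and 471 against 497 and Dpy30 read 1211, 1183 and 1296 against 1091, with adjusted p of 0.411 and 0.359. Kmt2b, the closest relative of Kmt2a, read 231, 236 and 218 against 241 (log2 -0.09 ± 0.09 SE, adjusted p = 0.652). Of 6 measured H3K4 demethylase genes none was called, and none had an unadjusted p under 0.05. Of 26 textbook MLL targets, 12 were measured and none was called (3, or 25%, at an unadjusted p under 0.05), with a median of -0.12. The lowest was Mef2c, a transcription factor gene, at 220.2, 189 and 185 against 238 (log2 -0.32 ± 0.12 SE, adjusted p = 0.251), followed by the homeobox gene Hoxa5 at 179.8, 184 and 194 against 217. Both were dim, 23 of the targets were on the array, and those below the filter were not tested here. No member of the methyltransferase or MLL target lists was called under any of the 11 alternative settings. As reported, 0 calls among 14 and 12 measured members lay near the 1.85% of all genes.

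Several other lists held no call by limma as reported, near the 1.85% called over all genes. At an unadjusted p under 0.05, which 17% of all genes passed, there were 4 of 11 LXR targets and genes of cholesterol export, 2 of 16 and 2 of 14 genes of MHC class I and II presentation, 4 of 14 subunits of the lysosomal proton pump, 5 of 10 alternative activation genes (50%), 6 of 14 complement genes (42.9%), 2 of 12 heat shock proteins, 4 of 18 glycolysis and hypoxia genes and 3 of 17 nucleic acid sensors. The complement genes C1qc (log2 -0.70 ± 0.14 SE, adjusted p = 0.0559) and C1qb (log2 -0.59 ± 0.12 SE, adjusted p = 0.056) came closest to the threshold. The count of 0 depended on the setting: 3 complement genes were called lower without background correction, with an offset of 100, with an intensity trend, with the mean of probes and without siMLL replicate 2, and 1 with the filter at the 75th percentile. Alternative activation genes were called under 4 of the 11 alternatives, MHC class I genes under 6, glycolysis and hypoxia genes under 2 and proton pump genes under 1, and the LXR, MHC class II, heat shock and nucleic acid sensor lists had no call under any. Among 71 cytosolic ribosomal proteins 1 was called, lower (Rpl3l), while 51 had a value below 0 and the median was -0.05. Among 70 mitochondrial ribosomal proteins 1 was called, higher (Mrps10), while 50 had a value above 0 and the median was 0.06. Among 39 proteasome genes 1 was called, higher (Psme4, whose other kept probe gave -0.01), while 26 had a value below 0. In these last lists the shares called, 1.41%, 1.43% and 2.56%, lay near the 1.85% of all genes.

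Markers of other cells of a peritoneal lavage differed somewhat between the siMLL arrays and the siCtrl array. The summed intensity of 6 monocyte markers was 1501 to 1607 with siMLL and 1867 with siCtrl, that of 12 neutrophil markers 2646 to 2740 and 2382, and that of 13 mesothelial and fibroblast markers 5597 to 5874 and 6675. Above the filter were 3, 6 and 9 of them, of which 3, 5 and 4 had an unadjusted p under 0.05. Single genes carried much of these gaps: Fn1 read 787, 899 and 793 against 1088, S100a8 read 903, 824 and 919 against 688, and Dcn read 2693, 2654 and 2413 against 3127. The only called marker was Upk3b, a mesothelial gene, at 172, 164 and 182 against 231 (log2 -0.51 ± 0.09 SE, adjusted p = 0.0446), which lost that call without siMLL replicate 1 (adjusted p = 0.0929) or replicate 3 (adjusted p = 0.0705). Upk3b was 1 of 9 measured mesothelial and fibroblast markers (11.1% called, against 1.85% of all genes). Sums for the other cell types differed by less. The siCtrl sum of B (867), T and NK (7007) and erythroid (563) markers lay within the range of the siMLL sums. Most of the T and NK sum came from Il7r, at 5590, 5422 and 5806 with siMLL and 5744 with siCtrl. Only 4 of the 11 T and NK markers on the array lay above the filter. The siCtrl sum lay above the siMLL range for dendritic markers (2215 against 2026 to 2123). The same held for markers of mast cells, basophils and eosinophils (1523 against 1489 to 1505). Markers of resident large peritoneal macrophages also read higher with siCtrl (1167 against 1092 to 1124). The part of other cells in the differences above was not tested. In arrays of whole cultures, fewer cells of a type and less RNA per cell cannot be told apart.

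The untreated siGABP array shows what another lone array gave beside the same siMLL triplicate. In that comparison 96 of 8797 genes (1.09%) were called, 41 higher and 55 lower with siMLL. Both comparisons use the same 3 siMLL arrays, so their values are only set side by side. The count was 33, 146 and 21 without siMLL replicate 1, 2 and 3. For Slc2a6 the siGABP array read 1844, near the siMLL arrays (log2 -0.16 ± 0.08 SE, adjusted p = 0.424), whereas siCtrl read 541. The same was seen for Il10ra, at 471 with siGABP (log2 0.03 ± 0.10 SE, adjusted p = 0.931) and 959 with siCtrl, and for Fbxo32, at 1081 (log2 0.00 ± 0.09 SE, adjusted p = 0.997) and 2181. Slc40a1 and Mmp13 read 609 and 241, below every siMLL array. In these 5 genes the siCtrl array was the one that stood apart from the other 4 untreated arrays. In 20 of the 24 genes with the largest rises and falls the siGABP value was nearer to the siMLL mean than to siCtrl. Examples are Spg21 (2082), Rtl8a (3694), Slc6a12 (626), Lsp1 (1554), Dio2 (2683) and Sirpb1a (395). In 13 of the 24 the siGABP value lay between siMLL and siCtrl. Of these 24 only Scd2, Ccl9 and Ifit2 were called against siGABP. Over all 163 called genes the siGABP value lay within the siMLL range in 32, past it on the side away from siCtrl in 29, between siMLL and siCtrl in 91 and at or past siCtrl in 11. The genes had been called for the distance of siCtrl from siMLL, so these counts are descriptions with no test.

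Lipid genes and interferon-stimulated genes gave another picture. The siGABP value was nearer to siCtrl in 9 of the 10 called genes of the cholesterol and fatty acid lists. Even so, it lay between siMLL and siCtrl in 9 of the 10 and at or past siCtrl in 1. It was nearer to siCtrl in all 5 called interferon-stimulated genes, between siMLL and siCtrl in 1 of them and at or past siCtrl in 4. Of each of these sets, 4 genes were called against siGABP. Scd2 read 7419.6 with siGABP, between siCtrl (5569.7) and the siMLL arrays, and was higher with siMLL than with siGABP (log2 0.64 ± 0.08 SE, adjusted p = 0.0191). Hmgcs1 read 3484, below siCtrl (log2 0.81 ± 0.08 SE, adjusted p = 0.0161), and Fdps 2164 (log2 0.53 ± 0.09 SE, adjusted p = 0.0412). Scd1 (log2 0.57 ± 0.08 SE, adjusted p = 0.0288) and Slc7a5 (log2 0.51 ± 0.08 SE, adjusted p = 0.0317) were also called higher than with siGABP, while Sqle (adjusted p = 0.0826), Msmo1 (adjusted p = 0.0724), Fasn (adjusted p = 0.105), Fads1 (adjusted p = 0.0688), Lpl (adjusted p = 0.143) and Nsdhl (adjusted p = 0.155) were not. Ccl9 read 608 with siGABP and 582 with siCtrl, both far below the siMLL arrays (log2 0.81 ± 0.09 SE, adjusted p = 0.0173). Ifit2 read 1378 with siGABP, above siCtrl, so that the siMLL arrays were lower than both (log2 -1.59 ± 0.12 SE, adjusted p = 0.00403). Slfn1 (log2 -1.38 ± 0.08 SE, adjusted p = 0.000938), Gbp3 (log2 -0.77 ± 0.08 SE, adjusted p = 0.0164), Cmpk2 (log2 -0.73 ± 0.08 SE, adjusted p = 0.0161), Cd274 (log2 -0.73 ± 0.09 SE, adjusted p = 0.021) and Oas2 (log2 -0.57 ± 0.08 SE, adjusted p = 0.0271) were likewise lower with siMLL than with siGABP, as was Irgm2 (log2 -0.55, adjusted p = 0.0442), whereas Irf9 was not called (log2 -0.41, adjusted p = 0.0576). Ifi27l2a was highest with siGABP, at 4944 (log2 -0.52 ± 0.08 SE, adjusted p = 0.0395).

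**Figure D5:**
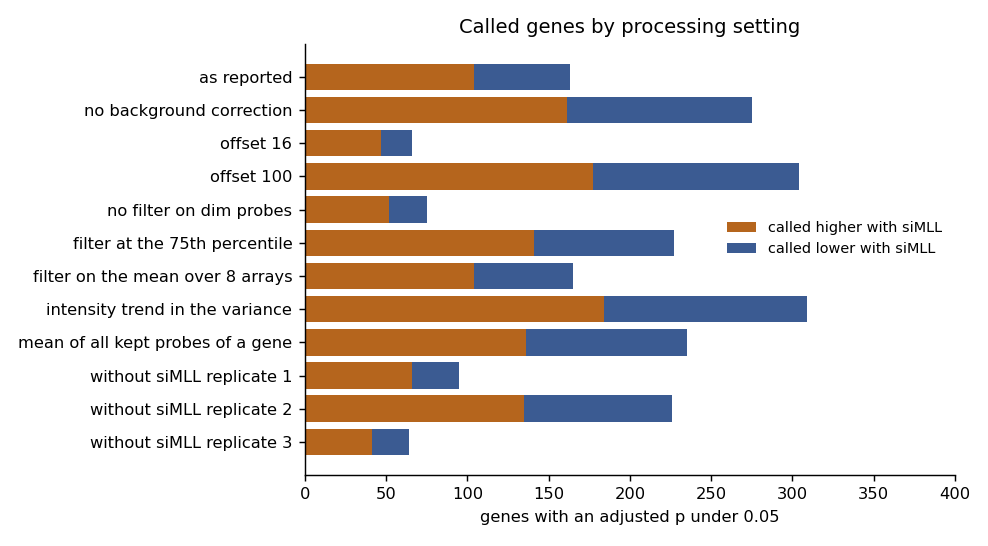
Number of called genes (horizontal axis) as reported and under 11 alternative settings, with genes higher with siMLL in brown and lower in blue. The total ranged from 64 without siMLL replicate 3 to 309 with an intensity trend in the variance, and more genes were higher than lower in each setting.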

How the data were processed

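RNA of untreated siMLL (n = 3), siCtrl (n = 1) and siGABP (n = 1) macrophages was measured on Illumina arrays. The deposited intensity values, on a linear scale, came from BeadStudio 1.5.1.3 per the submitters' processing notes. Sorted values of all 8 arrays were identical (68.5 to 62999, median 139.5), so the authors had apparently quantile normalized them. The other deposited table was not used, since its 16 columns match no label.

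Values were background corrected (normexp, offset 50), quantile normalized and put on the log2 scale. Of 23978 probes, 11989 with a mean over the 4 arrays above the median (log2 6.72) were kept. Platform annotation named 1 gene for 20917 probes, several for 1 and none for 3060, and 20903 of the first had their symbol updated through the Entrez identifier (GRCm38.p6). The brightest probe represented each of 8801 genes. limma 3.58.1 in R 4.3.3 gave two-sided moderated tests with 2 residual degrees of freedom, all from the siMLL triplicate (7.58 with the prior). Of 35 other kept probes of called genes, 32 had the same sign. The fit was tested on simulated data in which the lone array varied like the triplicate, so that test could not check this assumption. The number of arrays limits the precision.

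Genes to name were the 12 largest called rises and the 12 largest called falls with siCtrl outside the siMLL range, in any list the 4 genes with the largest absolute moderated statistic, and the measured H3K4 methyltransferase and standard TLR4 target genes. Of these the text gives the called ones and a choice of others, and some genes outside the rule were chosen after their values were seen. Members and lists were chosen with earlier results of these data known. Alternatives covered background, offset, filter, variance trend, probe choice and each siMLL replicate.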

Additional observations from a re-analysis of the deposited data

How the results depend on the processing

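All 163 called genes kept their direction under each of 11 alternatives (144 of 144 still tested with a filter at the 75th percentile). This was nearly fixed in advance and says little about robustness. The siCtrl value lay outside the siMLL range in all 163, so leaving out a replicate could hardly reverse a sign. The other settings fitted the same arrays and, except for the mean of probes, largely the same probes. The count of called genes did move. It was 275 (161 up, 114 down) without background correction, 66 (47 up, 19 down) with an offset of 16, 304 (177 up, 127 down) with an offset of 100, 75 (52 up, 23 down) without the filter on dim probes, and 309 (184 up, 125 down) with an intensity trend in the variance. With the mean of all kept probes of a gene 99 genes fell. Leaving out 1 siMLL replicate gave 64 to 226 calls, 41 to 135 up and 23 to 91 down, with 1 residual degree of freedom. Against siGABP the count of 96 became 6 with an offset of 16, 164 with an offset of 100, 22 without the filter and 164 with the trend, and 21 to 146 when 1 replicate was left out. The cause of these shifts was not tested. No paired analysis was possible because only the siMLL untreated group carries replicate numbers. Without detection values, dim probes could not be told from background, and the lone siCtrl array limits every comparison.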

Other observations

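Some called genes outside the lists, chosen after their values were seen, belong to other parts of macrophage biology. Igf1, a growth factor that macrophages secrete, read 2819, 3107 and 2855 in the siMLL arrays and 2020.3 in the siCtrl array, 1.45-fold higher (log2 0.54 ± 0.09 SE, adjusted p = 0.0307). P2ry6, the receptor for UDP, read 1328, 1305 and 1347 against 801, 1.68-fold higher (log2 0.75 ± 0.08 SE, adjusted p = 0.00687). The clock gene Per2 read 198, 199 and 214 against 147 and was 1.49-fold higher (log2 0.57 ± 0.09 SE, adjusted p = 0.0238). Dbp, a clock-controlled transcription factor gene, read 494, 477 and 519.9 against 356 and was 1.43-fold higher (log2 0.52 ± 0.09 SE, adjusted p = 0.031). Vsig4, a complement receptor of resident macrophages, fell to 178, 160.4 and 168 from 242, 1.54-fold lower (log2 -0.62 ± 0.09 SE, adjusted p = 0.0238). The siCtrl value lay outside the siMLL range in each, as in every called gene and in 62.3% of all genes tested. With siGABP the 5 genes read 2388, 1274, 205, 589.8 and 170.4, so that this array lay within the siMLL range for Per2 and Vsig4, above it for Dbp, just below it for P2ry6, and between siMLL and siCtrl for Igf1. Without siMLL replicate 1 the calls of Igf1 (adjusted p = 0.0514) and Dbp (adjusted p = 0.0714) were lost, and without replicate 3 those of Igf1 (adjusted p = 0.0835), Per2 (adjusted p = 0.0696), Dbp (adjusted p = 0.09) and Vsig4 (adjusted p = 0.0743). P2ry6 was called whichever siMLL array was left out.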
